A study of Homo sapiens with 6 samples.

Results

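The cancer-testis antigen families examined here are the MAGE, GAGE, PAGE, XAGE, SSX, CT45, CT47 and CTAG genes, taken as all 112 gene symbols, of 23228 in the files, that start with these names (SSX followed by a digit). RNA was sequenced in 6 libraries from MDA-MB-231, a triple-negative human breast cancer line of mesenchymal appearance. Of the 6, 3 libraries came from cells given lentivirus with a short hairpin RNA (shRNA) against SCUBE3, an EGF-repeat protein found secreted and on the cell surface, and 3 from cells given lentivirus with a scrambled shRNA. Cells of both groups were grown under puromycin for a week and SCUBE3 was checked by western blot, and the labels give neither the number nor the sequence of the hairpins, nor whether replicates came from separate cultures, so the spread behind the p-values may be a technical one. Genes of these families are normally read in germ cells of the testis and kept silent in most other tissues, many by DNA methylation of their promoters, and are read again in many tumours, where fragments of their proteins can be shown to T cells. Most lie on the X chromosome, in clusters of copies with nearly the same sequence. The prefixes also take in the 9 type II MAGE genes (here MAGED, MAGEE, MAGEF, MAGEH and MAGEL), which many tissues express, and SSX2IP, named for its binding to SSX2. A further 9 symbols are CTAGE genes and pseudogenes, a family of its own that holds the cancer-testis antigen CTAGE1 and the widely expressed CTAGE5.

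Reads in genes numbered 24249429 to 25520901 in the libraries labelled shSCUBE3 and 21348509 to 24234762 in the scramble libraries. SCUBE3 itself had 99, 107 and 101 reads in the libraries labelled shSCUBE3, against 96, 91 and 80 in scramble (log2 fold change 0.025 ± 0.14, SE; adjusted p = 0.871 by edgeR's quasi-likelihood test; 95% interval -0.26 to 0.31). Its RNA was thus not called lower, and the groups are named by their labels throughout. An adjusted p under 0.05 was reached by 85.9% of the 13606 genes in the test (43.4% were higher with the shSCUBE3 label and 42.5% were lower), so a call by itself does not set a gene apart here. The defining markers of the line were read in both groups, here in CPM (read counts scaled to library size and TMM factor). VIM, AXL, CD44 and EGFR together were at 4732 to 4892 CPM in the libraries labelled shSCUBE3 and 6473 to 6816 CPM in scramble. They did not move together: VIM (log2 fold change -0.87), EGFR (-0.84) and AXL (-0.17) were lower with the shSCUBE3 label and CD44 (0.86) higher. In the same order of groups, 6 markers that are low in this line were together at 38.4 to 39.4 and 33.4 to 34.4 CPM. Among these, chosen after their values were seen, CDH1 had 152 and 3 reads in all and PGR 0 and 66. Of 6 germ cell markers, DDX4, SYCP1, TNP1, PRM1 and PRM2 had 0 reads in every library, and DAZL had 2 reads in the libraries labelled shSCUBE3 and 0 in scramble. Melanocyte markers, a cell type of a tumour known for these antigens, summed to 0.962 to 1.38 CPM against 0.926 to 1.91 CPM, with MLANA and TYR at 0. DCT had 0 reads in the libraries labelled shSCUBE3 and 7, 6 and 6 in scramble, and the groups overlapped for PMEL. The summed leukocyte markers were at 6.06 to 6.81 CPM in the libraries labelled shSCUBE3 against 0.239 to 0.547 CPM in scramble, nearly all of it CD14, with PTPRC at 0.145 and 0.133 CPM. Endothelial markers were at 2.61 to 2.86 against 0.810 to 1.47 CPM, nearly all of it PECAM1 (means 2.59 and 0.976 CPM), with CDH5 at 0.0527 and 0.0899 and VWF at 0.0791 and 0.0617 CPM. Fibroblast markers were at 19.5 to 21.8 against 4.97 to 6.06 CPM, mostly PDGFRB and COL1A1, with DCN at 0. LUM, also of that list, had 17, 16 and 14 reads in the libraries labelled shSCUBE3 and 0 in scramble. The part of these marker differences in the results below was not tested.

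Most of the families were not read. In all, 83 of the 112 members had 0 reads in all 6 libraries, and 29 had at least 1. Not a single read fell on any of the 22 GAGE, 9 XAGE, 6 CT45 or 12 CT47 genes, or on the 3 CTAG genes, which encode the NY-ESO-1 and LAGE-1 antigens targeted in T cell therapy. Reads were found for 11 of 25 type I MAGE genes (MAGEA, MAGEB and MAGEC), 6 of 9 type II MAGE genes, 4 of 6 PAGE genes, 2 of 10 SSX genes, SSX2IP and 5 of 9 CTAGE genes. A gene with 0 reads in a group may hold up to 0.0397 CPM in the libraries labelled shSCUBE3 and 0.0448 CPM in scramble (3 reads over the group, counting error only).

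What a count of 0 says differs between these families, since reads of 50 bases cannot be placed among identical copies. The files list reads aligned to several places apart from any gene, at 29.4% ± 0.175 of the total in the libraries labelled shSCUBE3 and 34.1% ± 0.106 in scramble (SD, n = 3). For 97 members with a GENCODE transcript, every window of 50 bases was looked up in the transcripts of all other genes. Median shares of windows found in no other gene were 0% for CT47, 4.87% for CT45, 3.92% for GAGE and 10.6% for the CTAG genes, but 97.8% for type I MAGE genes. Of the 83 members at 0 reads, 69 have a value, and 45 of these have under 20% of windows to themselves. At least 80% of windows are their own in 18 others, among them MAGEA1, MAGEA4, MAGEB18, XAGE2, XAGE3, XAGE5, PAGE1, PAGE4, SSX3, SSX5 and GAGE1. Apart from XAGE2 and GAGE1, 0 reads can be taken as a reading of these genes at this depth, within limits. Copies outside the GENCODE transcripts were not searched, and the annotation used for counting is not known. XAGE2 could not be compared with XAGE2B, a member without a GENCODE transcript. The value of GAGE1 rests on 1 transcript of 2873 bases, which the annotation used for counting may not hold. For the copies, RNA that could not be placed is not counted.

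**Figure D1:**
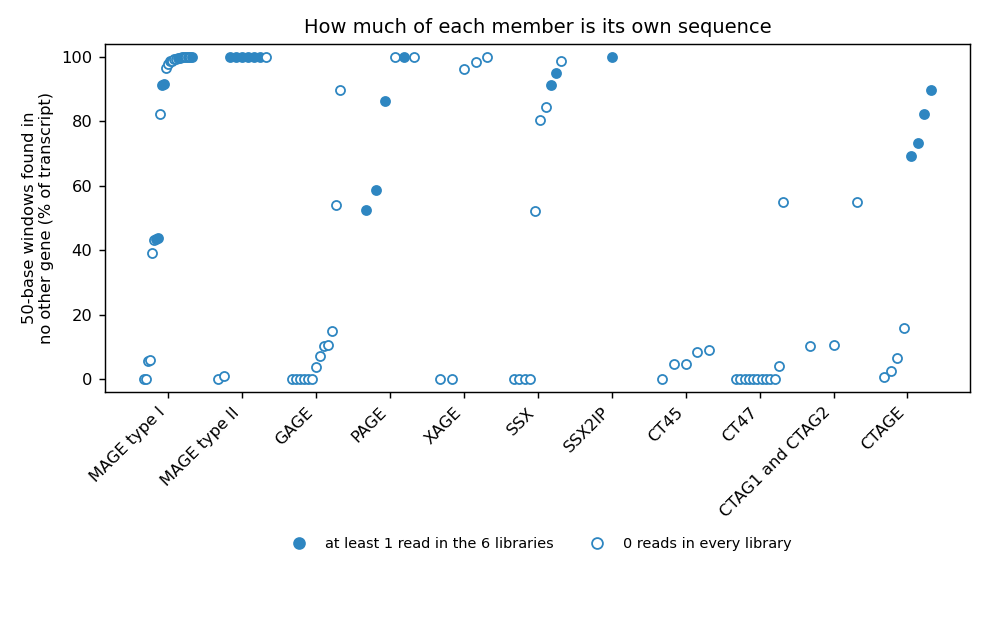
Share of the 50-base windows of each member's transcript that occur in no other gene's transcript (vertical axis, percent), by family, with 1 point for each of 97 members. Filled points had at least 1 read in the 6 libraries and open points had 0; GAGE, CT45, CT47 and CTAG genes are open throughout and mostly near the bottom, while open type I MAGE points lie at both ends.

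Among type I MAGE genes, whose proteins bind RING-type ubiquitin ligases, 1 gene was read strongly in scramble and another pair of genes in the libraries labelled shSCUBE3. MAGEA6 had 7, 7 and 2 reads in the libraries labelled shSCUBE3, against 1273, 1076 and 1200 in scramble, or 0.211 ± 0.112 CPM against 53.0 ± 1.44 CPM (SD, n = 3). All 3 scramble libraries lay far above all 3 labelled shSCUBE3. MAGEA6 was lower by log2 -7.93 ± 0.14 (SE; adjusted p = 2.23e-36 by edgeR's quasi-likelihood test). In these bulk libraries fewer cells with a transcript and less of it per cell cannot be told apart. MAGEA6 supplied nearly all type I MAGE reads of scramble, and the family summed to 13.8 ± 0.867 CPM in the libraries labelled shSCUBE3 and 53.9 ± 1.48 CPM in scramble. The direction of that sum rests on MAGEA6: over the type I genes with at least 80% of 50-base windows found in no other gene, which leaves MAGEA6 out, it was 13.5 and 0.831 CPM.

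MAGEA3, the closest copy of MAGEA6, was all but unread. It had 1, 1 and 2 reads in the libraries labelled shSCUBE3 and 4, 1 and 2 in scramble, and the groups overlapped (exact two-sided permutation test on CPM, p = 0.2, n = 3 per group, where 0.1 is the smallest possible). The pair share 98.6% of bases over transcripts of 1762 bases and 98.1% over a reading frame of 945 bases, with 18 differences. For MAGEA6, 43.4% of its 50-base windows are found in no other gene and 54.5% also lie in MAGEA3, and for MAGEA3 43.8% are its own. Both genes thus have a like share of windows by which a read can be placed, and scramble held 3549 reads of MAGEA6 and 7 of MAGEA3. Their counts leave out reads from the shared windows, and MAGEA2 and MAGEA2B, with 0 reads and 0% of windows of their own, cannot be read at all. The stretch of the reading frame with most differences between both genes, bases 583 to 632, shows what a read had to cover to be given to one of them (GENCODE release 29 transcripts, chromosome X, 5′ to 3′, capitals at the bases that differ).
MAGEA6: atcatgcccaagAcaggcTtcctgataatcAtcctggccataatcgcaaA
MAGEA3: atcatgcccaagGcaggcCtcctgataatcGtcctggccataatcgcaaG

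The 250 bases before the start of each of these genes are the same in all 250 positions. RefSeq's promoter table (GRCh38.p14) places them at chrX:152769690-152769939 on the minus strand for MAGEA6 and at chrX:152698544-152698793 on the plus strand for MAGEA3. They are printed once, since the letters do not differ, with each CpG, the site of DNA methylation, in capitals.
MAGEA6 and MAGEA3: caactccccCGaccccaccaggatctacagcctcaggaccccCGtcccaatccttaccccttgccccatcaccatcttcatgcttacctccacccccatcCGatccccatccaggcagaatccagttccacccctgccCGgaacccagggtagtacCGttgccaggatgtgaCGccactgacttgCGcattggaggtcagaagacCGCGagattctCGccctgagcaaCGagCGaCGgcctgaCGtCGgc
This window holds 15 CpG sites, more than 57.1% of the promoters in the table, and 1 match to CCGGAA, a form of the ETS factor motif, on either strand. Over the table, 14.5% of 250-base windows hold CCGGAA. Methylation was not measured in these libraries.

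MAGEC1 and MAGEC2 went the other way. MAGEC1, known as CT7, had 273, 287 and 242 reads in the libraries labelled shSCUBE3 and 0, 0 and 1 in scramble, or 10.6 ± 0.705 against 0.0150 ± 0.0260 CPM (SD, n = 3). That is a ratio of 710 (exact 95% counting interval 127 to 28084), and MAGEC1 was called higher (edgeR adjusted p = 2.07e-25). MAGEC2, known as CT10 and as a partner of the ubiquitin ligase TRIM28, had 57, 69 and 61 reads against 0 in every scramble library. It averaged 2.47 ± 0.189 CPM and was at least 55.2-fold higher against a floor of 3 reads over the scramble group (edgeR adjusted p = 2.22e-15). Both genes have sequence of their own in 99.6% and 99.9% of windows, so copies hardly touch these counts. The single scramble read of MAGEC1 fell in replicate 3, and without that library MAGEC1 had 0 reads in scramble.

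MAGEC1 and MAGEC2 are next to each other among the genes of the files in RefSeq's order of the X chromosome. The 250 bases before each start are shown because both genes were read almost wholly in the libraries labelled shSCUBE3 (GRCh38.p14; MAGEC1 at chrX:141903644-141903893, plus strand; MAGEC2 at chrX:142205291-142205540, minus strand; 5′ to 3′, CpG in capitals).
MAGEC1: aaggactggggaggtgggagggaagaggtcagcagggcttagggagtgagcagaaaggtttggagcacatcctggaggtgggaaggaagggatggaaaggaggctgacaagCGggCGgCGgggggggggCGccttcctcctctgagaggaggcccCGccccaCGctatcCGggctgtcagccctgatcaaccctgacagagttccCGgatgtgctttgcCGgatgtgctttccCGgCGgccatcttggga
MAGEC2: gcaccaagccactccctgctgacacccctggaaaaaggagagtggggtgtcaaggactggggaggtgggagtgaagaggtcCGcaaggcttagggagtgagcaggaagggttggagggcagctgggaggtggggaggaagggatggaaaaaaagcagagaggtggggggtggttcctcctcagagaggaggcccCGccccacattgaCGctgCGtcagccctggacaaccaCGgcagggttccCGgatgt
MAGEC1 has 11 CpG sites here and MAGEC2 has 6. Searched on both strands, CCGGAT, another spelling of the ETS core, occurs 3 times before MAGEC1 and 1 time before MAGEC2, and CCGGAA not at all. The table holds 83 promoters of 64 members, of which 20 (24.1%) have CCGGAT, against 5.85% of all 35116 windows of this length. CCGGAA goes the other way, in 5 (6.02%) of the members' promoters against 14.5% of all windows. Copies within a family share sequence, so these promoters are not independent of each other.

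**Figure D2:**
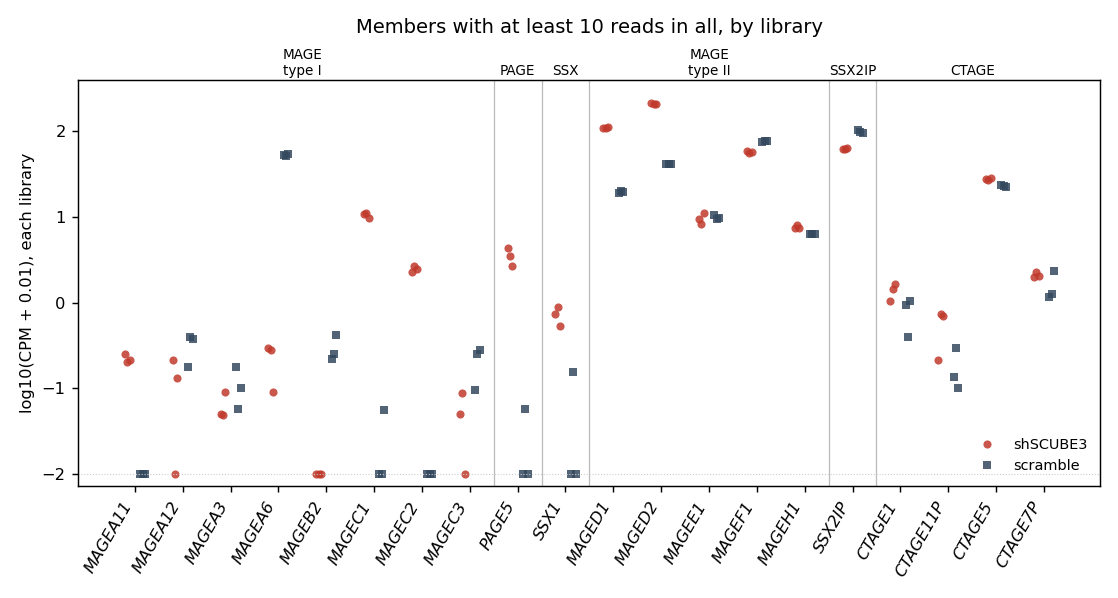
CPM of each member with at least 10 reads in all, on a log10 scale after adding 0.01 (vertical axis), 1 point a library, circles for the libraries labelled shSCUBE3 and squares for scramble. Points on the dotted line had 0 reads; MAGEA6 stands high in scramble, MAGEC1, MAGEC2, PAGE5 and SSX1 in the libraries labelled shSCUBE3.

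The other type I MAGE genes were near the floor. MAGEA11, known as a coactivator of the androgen receptor, had 6, 5 and 5 reads in the libraries labelled shSCUBE3 and 0 in scramble, at least 4.72-fold higher. MAGEB2 had 0 reads in every library labelled shSCUBE3 and 5, 5 and 9 in scramble, at least 7.15-fold lower. MAGEC3, which lies on the other side of MAGEC1, had 1, 2 and 0 reads against 2, 5 and 6, a ratio of 4.89 in favour of scramble (exact 95% counting interval 1.34 to 26.8). In CPM the groups did not overlap for any of these. For MAGEC3 that rests on library scaling, since a library of each group had 2 reads. Each exact two-sided permutation p was 0.1 (n = 3 a group), the lowest that 3 against 3 can give. MAGEA12 had 5, 0 and 3 reads against 4, 8 and 8, and its groups overlapped. None of them passed the low-count filter, and MAGEB1, MAGEB6 and MAGEB16 had at most 4 reads in all.

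PAGE5, a short X-linked member of the GAGE-like PAGE genes, had 109, 90 and 65 reads in the libraries labelled shSCUBE3, against 0, 1 and 0 in scramble. It averaged 3.49 ± 0.869 and 0.0159 ± 0.0275 CPM (SD, n = 3), a ratio of 234 (exact 95% counting interval 41.6 to 9268; edgeR adjusted p = 1.09e-16). All libraries labelled shSCUBE3 lay above all of scramble, though their own spread was wide. PAGE3 had 2, 1 and 2 reads against 0, and PAGE2B 0 reads against 4, 1 and 1, so reads in this small family did not all lie in 1 group. SSX1, a transcriptional repressor known as a fusion partner in synovial sarcoma, had 18, 23 and 13 reads against 0, 3 and 0, or 0.712 ± 0.181 against 0.0477 ± 0.0826 CPM. Its ratio was 15.9 (exact 95% counting interval 5.17 to 79.7; edgeR adjusted p = 1.09e-06). All 3 scramble reads of SSX1, and the 1 of PAGE5, came from scramble replicate 2, without which both genes had 0 reads there. Among the other SSX genes, SSX2, SSX2B, SSX4 and SSX4B have no window of their own, and SSX8, with 1 read, was the only other SSX gene with any.

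Type II MAGE genes held 29895 of 38428 member reads in the libraries labelled shSCUBE3 and 10254 of 22255 in scramble, and MAGED1 and MAGED2 rose. The family summed to 396 ± 5.41 CPM in the libraries labelled shSCUBE3 and 153 ± 1.78 CPM in scramble (SD, n = 3). MAGED1, also called NRAGE and known as an adaptor of the p75 neurotrophin receptor, had 2741, 2873 and 2779 reads in the libraries labelled shSCUBE3, against 447, 422 and 434 in scramble, with a log2 fold change of 2.51 ± 0.05 (SE; edgeR adjusted p = 4.48e-34). MAGED2, whose loss causes a transient salt-losing kidney disease before birth, had 5355, 5364 and 5138 reads against 988, 875 and 920, with a log2 fold change of 2.33 ± 0.04 (adjusted p = 1.85e-36). Libraries within a group lay close together for both genes, and the groups were far apart.

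The other type II genes moved little. MAGEF1, a partner of the SMC5/6 complex subunit NSMCE1, had 1475, 1438 and 1428 reads in the libraries labelled shSCUBE3, against 1763, 1621 and 1700 in scramble, and was lower by log2 -0.40 ± 0.05 (edgeR adjusted p = 1.85e-10). MAGEH1 had 187, 211 and 183 reads against 151, 131 and 140 and was higher by 0.29 ± 0.11 (adjusted p = 0.0161). That call was lost with DESeq2 (adjusted p = 0.0515) and without shSCUBE3 replicate 2 (edgeR adjusted p = 0.0713). MAGEE1, known to bind a dystrobrevin, had 235, 214 and 273 reads against 247, 199 and 216, and its groups overlapped. Its log2 fold change of -0.048 ± 0.10 did not pass (adjusted p = 0.663; 95% interval -0.25 to 0.16), and its sign turned with scaling by library totals. MAGEE2 had 1 read, and MAGEL2, a gene of the imprinted Prader-Willi region, had 0. The near-identical MAGED4 and MAGED4B also had 0 reads, with under 1% of windows of their own.

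**Figure D3:**
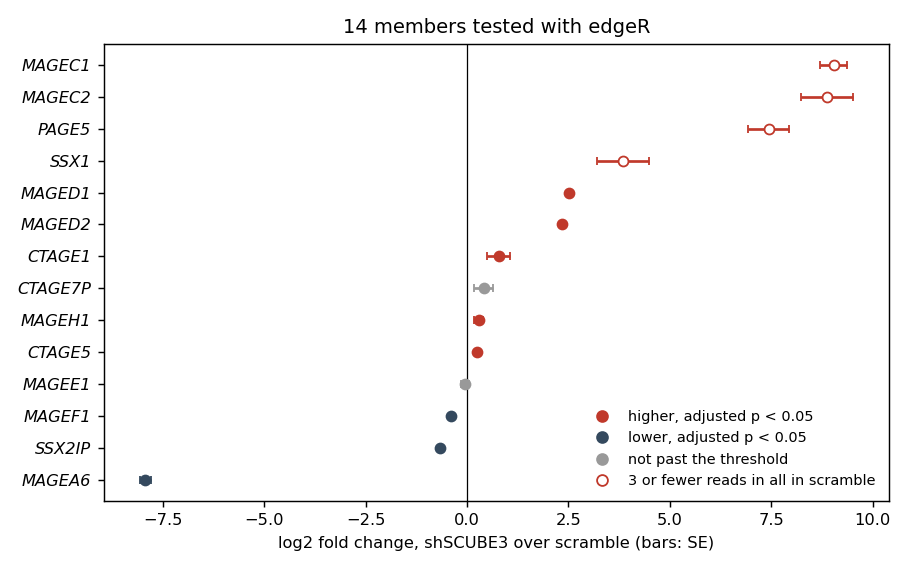
Log2 fold change, shSCUBE3 over scramble (horizontal axis), with its SE, of the 14 members that passed the low-count filter. Open points mark genes with 3 or fewer reads in all scramble libraries, whose fitted fold change depends on the small count added by the fit; MAGEA6 at -7.93 and MAGEC1 at 9.04 lie at the ends.

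SSX2IP, which binds the junction protein afadin and is needed for centrosome maturation, had 1554, 1612 and 1591 reads in the libraries labelled shSCUBE3 and 2449, 2080 and 2128 in scramble. It was lower by log2 -0.66 ± 0.04 (edgeR adjusted p = 3.13e-17), and the groups did not overlap in CPM. CTAGE5, a protein of endoplasmic reticulum exit sites that helps load large cargo such as collagen, had 696, 703 and 700 reads against 564, 486 and 504, higher by 0.26 ± 0.06 (adjusted p = 2.52e-04). RefSeq now joins it with MIA2, which the files list apart, so reads of sequence that both symbols cover may have been set aside as ambiguous. CTAGE1 had 26, 37 and 40 reads against 22, 8 and 23 and was higher by 0.78 ± 0.29 (adjusted p = 0.0133). It lost the call with DESeq2 (adjusted p = 0.0521), without scramble replicate 2 (edgeR log2 fold change 0.47, adjusted p = 0.127) and without shSCUBE3 replicate 3 (adjusted p = 0.0743). The pseudogene CTAGE7P had 50, 58 and 50 reads against 27, 26 and 52 and did not pass (0.41 ± 0.23, adjusted p = 0.0915). Without scramble replicate 3, which holds the 52 reads, it passed (0.81, adjusted p = 0.00285). CTAGE11P, another pseudogene, had 5, 19 and 17 reads against 3, 6 and 2, with overlapping groups, and was not tested.

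Over the 14 members that passed the filter, 9 were called higher, 3 lower and 2 not past the threshold, and the median log2 fold change was 0.60, against 0.0087 over all genes tested. A total of 12 of 14 called is close to the 85.9% of all genes, of which 43.4% were higher and 42.5% lower. Groups did not overlap in CPM for 12 of the 14, against 85.8% of all genes. Genes such as MAGEC1 passed the filter only through the group where they are read, so these counts describe the tested members and nothing more. Of the 15 members with a read that were not tested, the libraries labelled shSCUBE3 all lay above scramble for 3 and all below for 3, and the groups overlapped for 9. No share over all untested genes with a read was taken, so whether these counts are usual for genes of few reads is not known.

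Levels can be set against each other only per length, here as mean CPM per kilobase of the GENCODE transcript. In the libraries labelled shSCUBE3, MAGED2 was highest at 95.9, followed by MAGED1 at 38.6 and MAGEF1 at 35.1 CPM per kilobase. In scramble the order was MAGEF1 at 46.5, MAGEA6 at 30.1, MAGED2 at 19.0 and SSX2IP at 17.0 CPM per kilobase. MAGEA6 was thus on the level of widely expressed type II genes in scramble, by a count that leaves out its shared windows. In the other group the cancer-testis members were lower, with PAGE5 at 4.71, MAGEC1 at 2.48 and MAGEC2 at 1.24 CPM per kilobase.

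Of 68 other cancer-testis and germ cell genes, 35 had 0 reads in every library and 13 were tested. Of these 6 were higher, 6 lower and 1 not past the threshold, with a median log2 fold change of 0.0036; the shares called are near the 43.4% higher and 42.5% lower of all genes. PIWIL1, the germ cell Argonaute that binds piRNAs, had 1, 0 and 0 reads in the libraries labelled shSCUBE3 and 262, 191 and 225 in scramble, a ratio of 766 in favour of scramble (exact 95% counting interval 137 to 30287; edgeR adjusted p = 2.97e-25). MAEL, another gene of the piRNA pathway, went the opposite way with 83, 67 and 59 reads against 5, 5 and 6 (log2 fold change 3.50 ± 0.30, adjusted p = 1.73e-13). CABYR, a calcium-binding protein of the sperm tail, had 63, 65 and 57 reads against 2, 1 and 7 (3.99 ± 0.36, adjusted p = 4.45e-13). BAGE, a melanoma antigen with close copies, had 0 reads against 21, 14 and 14 and was at least 18.4-fold lower. TPTE, a testis phosphatase with close copies, was lower (5, 8 and 5 reads against 61, 74 and 49; log2 fold change -3.50 ± 0.31), as was the placental gene PLAC1 (-1.57 ± 0.21). SPA17 (-0.52 ± 0.07) and KIAA0100 (0.26 ± 0.03), both read in both groups, changed less.

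**Figure D4:**
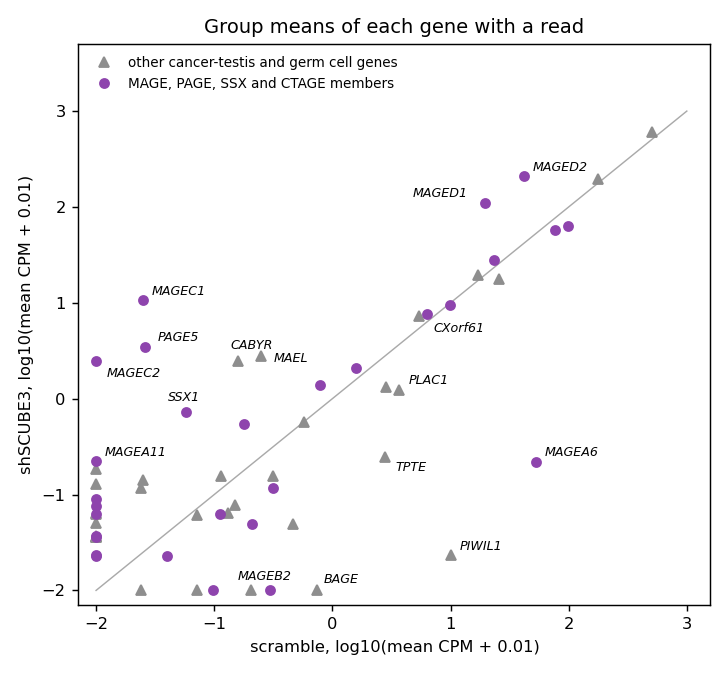
Mean CPM of each gene with a read, in the libraries labelled shSCUBE3 (vertical axis) against scramble (horizontal axis), both as log10 after adding 0.01, with the line of equal values. Circles are members and triangles the other cancer-testis and germ cell genes; both kinds lie on both sides of the line, with MAGEA6 and PIWIL1 far below it and MAGEC1, PAGE5 and MAGEC2 far above.

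A list of 31 genes of DNA methylation, chromatin silencing and factors that act at such promoters was tested but for DNMT3L, which had 3 reads in the libraries labelled shSCUBE3 and 0 in scramble. Of the 30 tested, 23 were lower in the libraries labelled shSCUBE3, 5 higher and 2 not past the threshold, beside 42.5% of all genes lower; the median log2 fold change was -0.51, against 0.0087 over all genes. By the smallest adjusted p these were MBD2, a reader of methylated DNA (-1.29 ± 0.04), the insulator factor CTCF (-1.22 ± 0.04), the factor SP1 (-1.02 ± 0.04) and the H3K27 methyltransferase EZH2 (-0.99 ± 0.04). The DNA methyltransferases, chosen after their values were seen, were lower as well, DNMT1 by log2 -0.72 ± 0.03, DNMT3A by -1.38 ± 0.09 and DNMT3B by -0.80 ± 0.06. MAGE and SSX partner genes were lower in 10 of 18 tested cases and higher in 3, with 5 not past the threshold and a median of -0.26. Over all genes tested, 42.5% were lower and 43.4% higher. SMC6, a core subunit of the SMC5/6 complex, had a log2 fold change of -1.64 ± 0.04. PRKAA1 encodes the AMPK subunit that MAGEA3 and MAGEA6 are known to mark for breakdown as a protein. Its RNA was at 143 ± 6.68 CPM in the libraries labelled shSCUBE3 and 314 ± 13.1 CPM in scramble (log2 fold change -1.13 ± 0.04). These libraries do not measure AMPK protein. The deubiquitinase USP7 was lower (-0.93 ± 0.03) and the ligase HUWE1, a partner of MAGEA11, higher (0.64 ± 0.03). TRIM28, the ligase of MAGEC2 and MAGEA6, chosen after its value was seen, differed by -0.089 ± 0.03 (edgeR adjusted p = 0.00608).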

How the data were processed

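Polyadenylated RNA was sequenced as single reads of 50 bases from stranded libraries, per the labels' protocols. Per the submitters' processing notes, the tools were HTSeq, TopHat2 2.0.8b and bcl2fastq, and the build hg19. Neither strand setting nor annotation is given in the sources used here, which leaves overlapping and antisense genes uncertain. Each deposited file holds raw read counts by gene symbol; 5 summary lines per file were left out. Genes kept by filterByExpr (13606) went, after TMM scaling, into edgeR 4.0.16's robust two-sided quasi-likelihood test (R 4.3.3) on the group alone, with p adjusted over all of them (Benjamini-Hochberg) at a threshold of 0.05. The SE is the size of the log2 fold change over the root of F. The fit was also run on simulated counts in which only a small part of the genes changed. In these libraries most tested genes were called, so that run does not check the scaling or the calls here. A group at 0 reads was set to a floor of 3 reads, and groups of 1 to 3 reads got an exact 95% counting interval; both cover counting error only. Within a group, pairs of libraries gave chi-square values of 1.67 to 3.45 per degree of freedom, above sampling noise.

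All members that passed the filter are named, with the 5 untested members of most reads, and up to 4 genes per companion list by adjusted p (8 for other cancer-testis genes); further members and genes were chosen after their values were seen. The members and lists were chosen with earlier results of these data known. Windows used 1 GENCODE release 29 transcript per gene (protein-coding, then longest), for 97 members, 4 of them through a RefSeq synonym; that release and the promoters are on GRCh38, unlike the counts. Alternatives were other scalings and filters, DESeq2 1.42.0, limma-voom (limma 3.58.1), a replicate block, leaving out each library, a stricter threshold of 0.01 and a test against a 1.5-fold change.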

Additional observations from a re-analysis of the deposited data

How the results depend on the processing

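Of 223 values of tested members under the alternatives, 209 kept direction and side of the threshold, 11 kept only the direction and lost the call, 1 gained it and 2 reversed. Both reversals were of MAGEE1, at 0.0036 with library totals and within -0.16 to 0.053 with 1 library left out. SCUBE3 ranged from -0.050 to 0.080 with 1 library left out. Without a low-count filter 29 members were tested, of which 12 were higher and 7 lower in the libraries labelled shSCUBE3. With the filter, 9 were higher and 3 lower. Of all 17503 genes tested without it, 6383 were higher and 6100 lower. Against a 1.5-fold change 3307 genes were higher and 2944 lower over all, and 5 and 25 in the companion lists; the stricter null gives fewer calls by construction, and CTAGE1, CTAGE5, MAGEF1 and MAGEH1 lost theirs. With the replicate block, 9 members were higher and 3 lower, and 5919 and 5787 of all genes. Same-numbered libraries deviated together by correlations of 0.0171, 0.0064 and 7e-04 only, and not every library correlated best with its own number. These correlations show no pairing by number, and whether same-numbered libraries were prepared together is not known. Using only members with at least 80% of windows of their own, the sums in the libraries labelled shSCUBE3 and in scramble were 13.5 and 0.831 CPM for type I MAGE genes (MAGEA6 drops out, and the direction turns), 3.56 and 0.0159 CPM for PAGE genes, and 3.45 and 2.35 CPM for CTAGE (CTAGE5 has no value). With CPM of library totals, type II MAGE genes summed to 403 CPM in the libraries labelled shSCUBE3 and 151 CPM in scramble. Without scramble replicate 3 CABYR reached 5.08, and without shSCUBE3 replicate 1, the library with its single read, PIWIL1 reached -10.89. Depth limits members of a few reads, and identical copies cannot be read at any depth.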

Other observations

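Among the genes within 4 places, in RefSeq's order, of MAGEA6, MAGEC1, MAGEC2, PAGE5, SSX1, MAGED1 or MAGED2, 13 that are no members were tested. Of these 8 were called higher and 3 lower, a share near the 85.9% of all genes called, and APEX2 near MAGED2 (-0.017, edgeR adjusted p = 0.727) and USP51 near PAGE5 (0.022, adjusted p = 0.954) did not pass. Those described next were chosen after their values were seen. SLITRK4, a neuronal transmembrane gene and the fourth gene after MAGEC1 among those in the files, had 2 reads in the libraries labelled shSCUBE3 and 506 in scramble, opposite to MAGEC1 and MAGEC2, and the SPANXN3 and SPANXN4 genes between them had 0 reads. GSPT2, a translation termination factor next to MAGED1, was higher by log2 1.63 (edgeR adjusted p = 5.98e-20), as MAGED1 was. ZNF630, near SSX1, had 139 reads in the libraries labelled shSCUBE3 and 1 in scramble, while SSX3, SSX4, SSX5 and SSX6, also near, had 0. CETN2 and NSDHL, beside MAGEA6, were higher (0.72 and 0.94), opposite to MAGEA6. Near MAGED2, FGD1 was higher (0.93), as MAGED2 was, while TSR2 (-0.23) and GNL3L (-0.20) were lower.

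Of 95 members matched to RefSeq, 84 lie on the X chromosome. Over the 448 tested genes of the X chromosome, 241 were called higher and 162 lower in the libraries labelled shSCUBE3, with a median log2 fold change of 0.28. On other chromosomes, the calls were 5476 higher and 5406 lower of 12602, and the median was 0.0036. This is a description of these libraries, with no test.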
